A study of Mus musculus with 5 samples.

Results

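The genes described here are 8 members of the Wnt signalling system: Sfrp1, Sfrp2 and Sfrp4, Dkk2 and Dkk3, Wnt5a, Rspo3, and Axin2. They were taken by name from 31053 genes listed for KPPCN tumours and 12579 genes listed for KPPC tumours. Of the 8 genes, 7 encode secreted proteins. AXIN2 is a cytoplasmic protein, so the shared label of secreted Wnt modulators holds for the other members and not for Axin2.

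Wnt ligands are secreted glycoproteins that bind Frizzled receptors together with LRP coreceptors and protect β-catenin from destruction. Secreted frizzled-related proteins (the SFRPs) carry a Frizzled-like cysteine-rich domain and can bind Wnt ligands outside the cell. Dickkopf proteins bind LRP coreceptors, although DKK3 is the divergent member of that family, and its part in Wnt signalling is less settled. WNT5A is best known for signalling through ROR receptors without β-catenin, R-spondins such as RSPO3 act through LGR receptors to keep Frizzled proteins at the cell surface, and Axin2 is a β-catenin target whose product feeds back as a scaffold of the destruction complex. In pancreatic carcinoma much of the tissue is stroma, and fibroblasts are known makers of SFRPs in many tissues.

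Tumours of KPPCN mice were compared with tumours of KPPC mice. The labels give the genotypes by these abbreviations only. In the naming used for these mice, Pdx1-Cre removes Trp53 from both chromosomes in KPPC pancreas, and KPPCN tumours lack Nsdhl, a sterol dehydrogenase of late cholesterol synthesis, in addition. Pdx1-Cre acts in the lineage that gives rise to the carcinoma and is not aimed at fibroblasts. Mice were 7 to 8 weeks old with advanced tumours, and samples were depleted of dead cells and of cells with the leukocyte marker CD45 before about 6000 cells per library were loaded for droplet sequencing of transcript 3′ ends. There were 2 KPPCN libraries, here KPPCN 1 and KPPCN 2, and 3 KPPC libraries with the codes C3, D3 and H2. Nothing in the labels ties the KPPC codes to sample numbers, so samples processed in parallel could not be paired.

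The libraries differed in depth and in makeup. After filtering, KPPCN 1 held 5147 cells and KPPCN 2 held 1985 cells, and the KPPC libraries held 2464 to 3663 cells. Median depth was 2175 unique molecular identifiers (UMIs) per cell in KPPCN 1, against 17213 to 21758 UMIs in the other 4 libraries. KPPCN 1 held 1304 cells of a T and NK-like cluster and 1069 of a B and plasma-like cluster, despite the depletion, whereas KPPCN 2 held 1 of each. Between 6 and 15 cell barcodes of each library also occurred in another library. Nsdhl stood at 38.2 and 36.7 CPM (a gene's UMIs scaled to a common total of UMIs) in clusters 4 and 7 of the KPPCN libraries, against 24.1 to 31.6 CPM in KPPC, and because the deleted part of the gene is not known here, these 3′ reads check nothing.

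The KPPC values had a fault that decides which members could be tested. In each KPPC library between 275 and 1036 of the 12579 genes stood at exactly 0 in every cell, and any gene above 0 was found in at least 37 cells. Igkc, an immunoglobulin chain, had 17559 UMIs in C3 and 0 in D3 and H2. An exact 0 over a whole KPPC library was therefore read as a gene not listed for it, and tests used the 11413 genes listed in all 5 libraries. Of the 8 members, 7 were among them. Rspo3 was listed for KPPCN 1, KPPCN 2 and C3, and its levels are described for these 3 libraries without a test.

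All 8 members are protein-coding genes of the mouse build GRCm38. Sfrp2 (ENSMUSG00000027996) lies on chromosome 3 from 83766321 to 83774316, Dkk2 (ENSMUSG00000028031) on chromosome 3 from 132085292 to 132180304, and Axin2 (ENSMUSG00000000142) on chromosome 11 from 108920349 to 108950783, each on the + strand. Sfrp1 is on chromosome 8, Sfrp4 on chromosome 13, Dkk3 on chromosome 7, Wnt5a on chromosome 14 and Rspo3 on chromosome 10. Antisense genes overlap Sfrp2 (Gm26771), Wnt5a (Gm2670), Rspo3 (Gm48159) and Axin2 (Gm11670). The sources do not say whether counting used strand, and for these 4 genes reads of an antisense partner cannot be told apart from those of the member.

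Promoter sequence matched 3 of the 8 members, and it is shown because these 3 genes behave differently in the stroma: Sfrp2 was high in fibroblast-like cells, Dkk2 was high in another stromal cluster and in clusters that carried Krt18 and Cdkn2a, and Axin2 is the β-catenin target. Each run holds the 250 bases before the annotated start on the + strand (RefSeq, build GRCm38.p6), and capitals mark matches to CTTTGA or CTTTGT, the core letters bound by TCF/LEF factors, searched on both strands.
Sfrp2, chr3:83766071-83766320: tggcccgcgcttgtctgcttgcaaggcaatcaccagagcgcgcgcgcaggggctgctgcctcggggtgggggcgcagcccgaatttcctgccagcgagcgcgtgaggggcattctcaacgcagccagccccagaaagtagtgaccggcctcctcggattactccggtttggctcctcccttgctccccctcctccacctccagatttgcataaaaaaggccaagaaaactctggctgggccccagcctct
Dkk2, chr3:132085042-132085291: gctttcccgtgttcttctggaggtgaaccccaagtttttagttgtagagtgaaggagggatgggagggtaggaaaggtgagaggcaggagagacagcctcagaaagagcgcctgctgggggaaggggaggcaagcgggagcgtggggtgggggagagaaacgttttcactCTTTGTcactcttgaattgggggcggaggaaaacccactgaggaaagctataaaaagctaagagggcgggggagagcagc
Axin2, chr11:108920099-108920348: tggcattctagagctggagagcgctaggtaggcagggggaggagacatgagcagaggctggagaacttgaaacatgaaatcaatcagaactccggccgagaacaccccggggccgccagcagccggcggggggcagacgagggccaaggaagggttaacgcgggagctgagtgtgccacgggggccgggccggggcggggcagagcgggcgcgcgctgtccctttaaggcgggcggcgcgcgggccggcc

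The Dkk2 window held 1 match, CTTTGT, 80 bases before the start, and the Sfrp2 and Axin2 windows held 0 matches. Over all 32851 promoter windows of this length, 27.6% held at least 1 match. G and C made up 63.6% of the Sfrp2 window, 55.6% of the Dkk2 window and 69.2% of the Axin2 window, against a median of 52.4% over all windows. CpG pairs numbered 16 in the Sfrp2 window, 7 in the Dkk2 window and 24 in the Axin2 window, against a median of 6.

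Cells fell into 29 clusters, made without the members so that a member could not place a cell. Fibroblast-like cells were clusters 0 and 2, named from Dcn, Lum, Pdgfra and other markers. Cluster 6 was left unnamed: it had 6 of 12 fibroblast markers raised and 5 of 10 markers of pericytes and smooth muscle, was led by H19, Cxcl14, Hsd11b1 and Nkd2, and had the contractile genes Acta2 at 956 to 2655 CPM and Tagln at 865 to 2654 CPM, against 207 to 823 CPM and 202 to 820 CPM in cluster 0. Clusters 5 and 9, also unnamed, were led by Cxcl13 and Saa3, and by Ndufa4l2 and Serpinb2. Clusters 8, 11, 12 and 15 expressed Krt18 (540 to 3412 CPM), Cdkn2a (1039 to 1174 CPM) and Hmga2 (469 to 917 CPM) with Epcam at 1.5 to 76.6 CPM, and clusters 4 and 7 expressed Epcam at 746 to 1869 CPM and Krt7 at 2091 to 2861 CPM. Both groups were summed after the clusters had been seen. Levels below are CPM of the summed UMIs of a population in 1 library, and since the clusters come from the same cells, differences between clusters are described without a test.

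Sfrp1 was a gene of fibroblast-like cells and of cluster 6 in every library. In fibroblast-like cells its level was 1171 CPM in KPPCN 1 and 1312 CPM in KPPCN 2, against 1642 CPM in C3, 2299 CPM in D3 and 2663 CPM in H2. In cluster 6 it was 1079 and 1270 CPM in KPPCN 1 and KPPCN 2, against 1347, 1277 and 2388 CPM in C3, D3 and H2. Among clusters found in 3 or more libraries the order of its medians ran from cluster 0 through cluster 6, the cycling cluster 18 and cluster 21 to cluster 9, and the ranges of neighbours in this order overlapped. Cluster 9 stood at 204 to 767 CPM and mesothelial-like cells at 25.2 to 66.7 CPM. Clusters 4 and 7 had 8.5 to 31.1 CPM, a level also seen in endothelial-like (11.2 to 34.8 CPM) and endocrine-like cells (8.2 to 27.6 CPM). Free RNA in the droplets can give such low levels, and its part was not tested.

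Sfrp2, like Sfrp1, had its highest median in cluster 0 among clusters found in 3 or more libraries. Its level in cluster 0 was 417 CPM in KPPCN 1 and 582 CPM in KPPCN 2, against 1373 CPM in C3, 1066 CPM in D3 and 574 CPM in H2. Cluster 6 had 48.6 and 53.8 CPM in the KPPCN libraries, against 71.7, 184 and 90.3 CPM in C3, D3 and H2, so that cluster 0 was 5.80 to 19.1 times as high within a library. Mesothelial-like cells, which line the organ surface, had 81.3 and 48.2 CPM in KPPCN 1 and KPPCN 2, against 140, 148 and 112 CPM in C3, D3 and H2. The mesothelial ranges of KPPCN and KPPC did not overlap. Clusters 4 and 7 had 3.0 to 20.2 CPM. D3 stood apart in clusters 5 and 9, with 337 and 263 CPM, against 4.8 to 107 CPM and 15.5 to 59.9 CPM in the other 4 libraries.

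Sfrp4 had its highest median in cluster 0 among clusters found in 3 or more libraries, followed by the cycling cluster 18, and varied between libraries. Fibroblast-like cells had 322 CPM in KPPCN 1 and 187 CPM in KPPCN 2, against 657 CPM in C3, 469 CPM in D3 and 118 CPM in H2. The genotypes overlapped, since H2 was the lowest and C3 the highest. Cluster 18 had 204 CPM in KPPCN 1, against 302, 84.7 and 14.5 CPM in C3, D3 and H2, and cluster 9 had 89.5 and 5.26 CPM in KPPCN 1 and KPPCN 2, against 51.8, 3.21 and 0 CPM in C3, D3 and H2. In cluster 6 Sfrp4 stood at 30.1 to 66.0 CPM, below cluster 0 in all 5 libraries by 3.97 to 10.0 times. Mesothelial-like cells had 0 to 19.6 CPM, and a count of 0 in KPPCN 2 there allows up to 5.56 CPM.

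**Figure D1:**
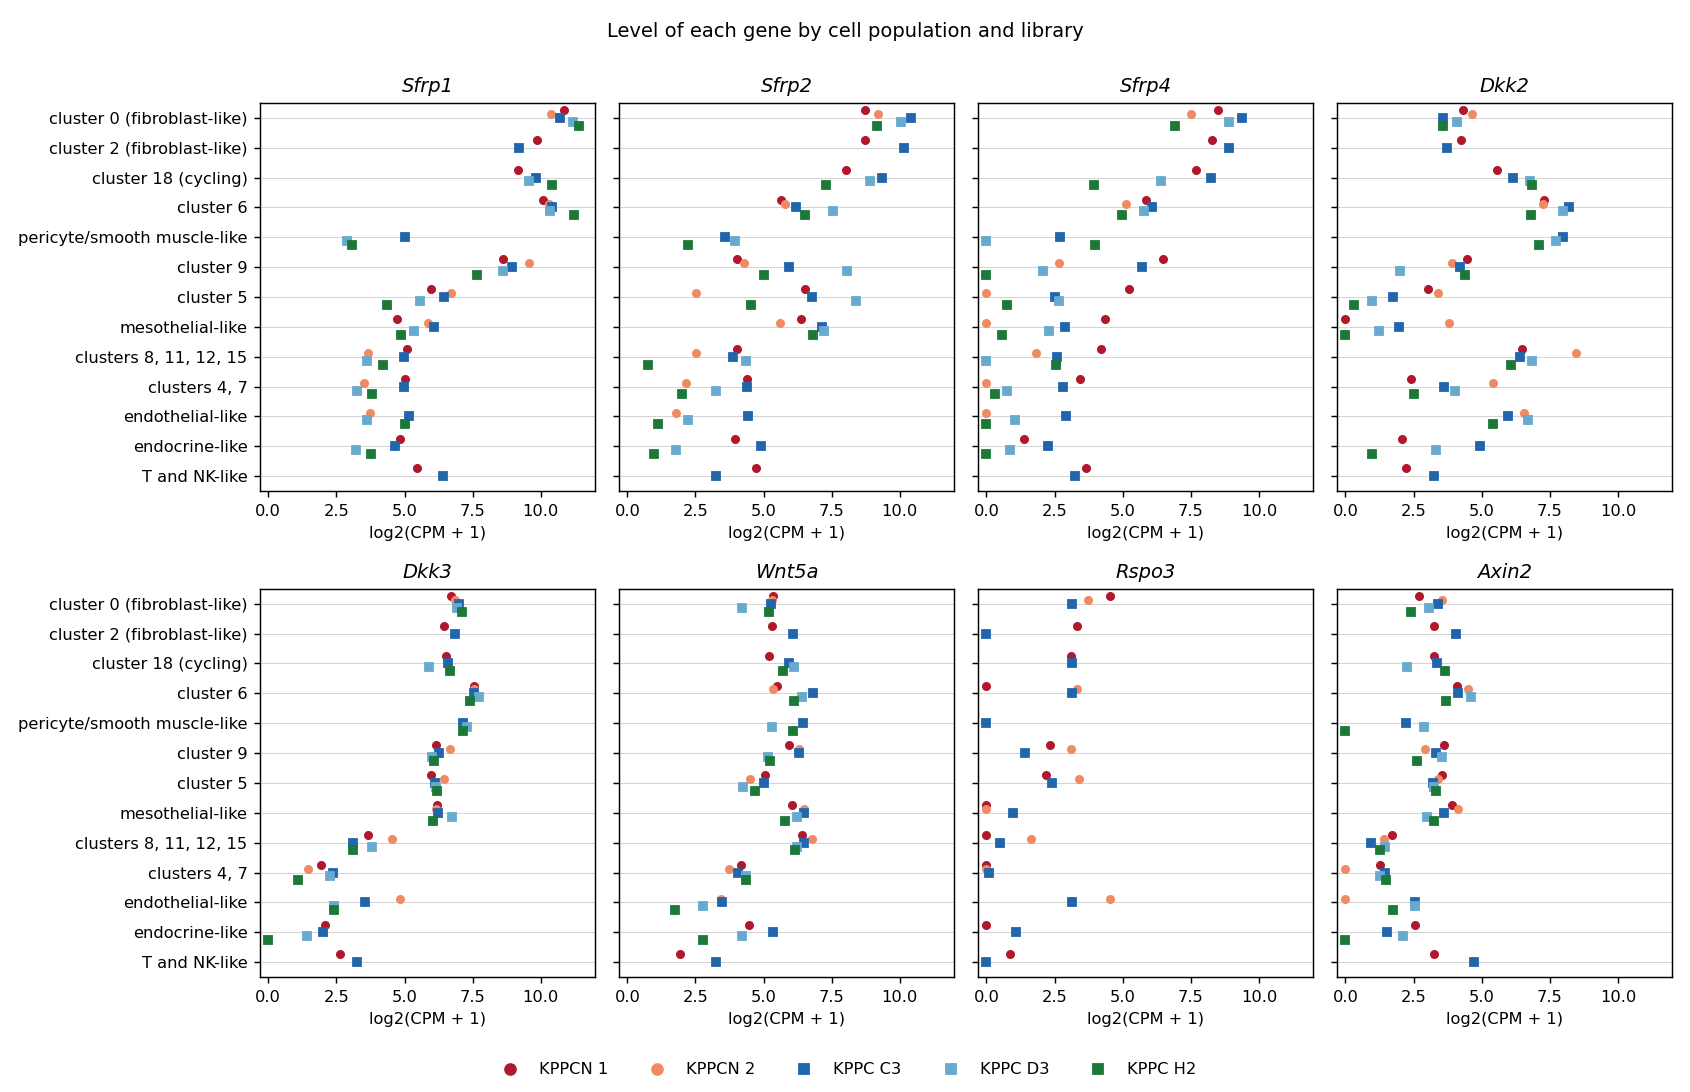
Level of each member as log2(CPM + 1) on the x axis in 13 cell populations down the page, 1 point per library with at least 20 cells, circles for KPPCN and squares for KPPC. Sfrp2 and Sfrp4 were highest in the fibroblast-like rows, Dkk2 was high in cluster 6 and in clusters 8, 11, 12 and 15, and Rspo3 has points only for KPPCN 1, KPPCN 2 and C3.

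Within the fibroblasts the 3 SFRP genes did not share 1 pattern. A finer clustering into 38 clusters split them, again without use of the members. A sub-cluster of 1099 cells led by Ptx3 and Cxcl12 had Sfrp2 at 600 to 1697 CPM with Sfrp4 at 229 to 579 CPM. A sub-cluster of 502 cells led by Eln, Pi16 and Dpt beside Sfrp4 itself had Sfrp4 at 298 to 880 CPM with Sfrp1 at 707 to 1288 CPM. Another sub-cluster of 339 cells, led by A2m, Hp and Dio3, had Sfrp1 at 1033 to 3946 CPM and Sfrp2 at 313 to 994 CPM, but Sfrp4 at only 9.17 to 23.6 CPM. H2, the library with the least Sfrp4 in fibroblast-like cells, held 179 of these 339 cells. In cluster 0, cells with a UMI of all 3 genes made up 19.9% in KPPCN 1 and 37.1% in KPPCN 2, against 58.6% in C3, 41.5% in D3 and 16.4% in H2. These shares follow depth as well as expression, with a median of 6441 UMIs per cluster 0 cell in KPPCN 1, against 13074 to 19733 UMIs elsewhere.

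Dkk2 had a different distribution, with little of it in fibroblast-like cells. Fibroblast-like cells had 18.1 CPM in KPPCN 1 and 23.3 CPM in KPPCN 2, against levels of 11.1, 15.6 and 11.02 CPM in C3, D3 and H2. Cluster 6 had 154 and 153 CPM in KPPCN 1 and KPPCN 2, against 291, 255 and 110 CPM in C3, D3 and H2. In all 5 libraries cluster 6 therefore exceeded cluster 0, by 6.37 to 26.4 times. Pericyte and smooth muscle-like cells, found in the KPPC libraries in sufficient number, had 253, 209 and 138 CPM in C3, D3 and H2. Endothelial-like cells had 91.8 CPM in KPPCN 2, against 61.6, 103 and 42.0 CPM in C3, D3 and H2. The cycling cluster 18 had 46.0 CPM in KPPCN 1, against 70.4, 109 and 113 CPM in C3, D3 and H2.

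A further site of Dkk2, beside these stromal and endothelial cells, was clusters 8, 11, 12 and 15. Their Dkk2 level was 88.8 CPM in KPPCN 1 and 352 CPM in KPPCN 2, against levels of 83.1, 114 and 66.8 CPM in C3, D3 and H2. KPPCN 2 was high, and KPPCN 1 fell within the KPPC range. Clusters 4 and 7 summed, which kept Epcam, had 4.2 and 42.0 CPM in KPPCN 1 and KPPCN 2, against 11.2, 15.3 and 4.7 CPM in C3, D3 and H2. In C3, D3 and H2 cluster 7 alone had 25.1, 27.1 and 10.4 CPM. Cluster 4 alone had 3.5, 3.1 and 0.35 CPM there. The sum held 47 cells of cluster 4 and 10 of cluster 7 in KPPCN 1, and 9 and 17 in KPPCN 2. Library and mix of clusters therefore cannot be told apart in the KPPCN sums. Within every library the clusters low in Epcam exceeded this sum for Dkk2, by 7.40 to 20.9 times. Over cluster 7 alone the excess was smaller in C3, D3 and H2. Summed fibroblast markers in the clusters low in Epcam came to 1572 and 1913 CPM in KPPCN, against 486 to 1559 CPM in KPPC. In this population 12 of 12 markers were above 0. Fibroblast-like cells had 41546 to 63572 CPM of these markers and little Dkk2. Other stromal cells, which carried more Dkk2, were not part of this comparison. Whether RNA of such cells, or doublets with them, added to Dkk2 in the clusters low in Epcam was not tested.

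Dkk3 was found over all the stromal clusters. It had 187 and 185 CPM in cluster 6 of KPPCN 1 and KPPCN 2, against 187, 209 and 167 CPM in C3, D3 and H2. Fibroblast-like cells had 91.5 and 117 CPM in KPPCN 1 and KPPCN 2, against 128, 126 and 137 CPM in C3, D3 and H2. Cluster 6 stood above cluster 0 in 5 of 5 libraries, by 1.23 to 1.80 times, and also above the pericyte and smooth muscle-like cells of KPPC (141 to 154 CPM). Mesothelial-like cells had 64.3 to 107 CPM, clusters 8, 11, 12 and 15 had 7.5 to 22.4 CPM, and clusters 4 and 7 had 1.1 to 4.2 CPM.

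Wnt5a, the only Wnt ligand among the members, was spread over stromal clusters, mesothelial-like cells and clusters 8, 11, 12 and 15. Clusters 8, 11, 12 and 15 had 84.2 CPM in KPPCN 1 and 109 CPM in KPPCN 2, against levels of 89.3, 74.6 and 71.0 CPM in C3, D3 and H2. Mesothelial-like cells had 64.4 and 88.9 CPM in KPPCN 1 and KPPCN 2, against 89.1, 73.3 and 53.5 CPM in C3, D3 and H2. Both ranges overlapped between genotypes. Fibroblast-like cells had 16.9 to 38.8 CPM. In all 5 libraries clusters 8, 11, 12 and 15 summed exceeded them by 1.97 to 4.41 times, and exceeded clusters 4 and 7 by 3.64 to 8.91 times. Cluster 11 alone had 37.0 and 42.5 CPM in KPPCN 1 and KPPCN 2, from 7 and 81 UMIs, against 22.1 CPM in C3. In these libraries fibroblast-like cells had 38.8, 38.4 and 38.8 CPM. In the order of Wnt5a medians, from cluster 12 through clusters 15 and 10 to cluster 6 and on to cluster 0, the ranges of every pair of neighbours overlapped.

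Rspo3 was sparse. Its level in cluster 0 was 22.3 CPM in KPPCN 1 and 12.3 CPM in KPPCN 2, against 7.8 CPM in C3, from 37, 50 and 143 UMIs. Endothelial-like cells had 22.3 CPM in KPPCN 2, with a 95% Poisson interval of 10.2 to 42.4 CPM from 9 UMIs, against 7.9 CPM in C3. Cluster 6 had 0 UMIs in KPPCN 1, which allows up to 2.31 CPM, and 8.97 CPM in KPPCN 2, against 7.94 CPM in C3. Intervals and limits of this kind cover counting error only.

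Axin2 was low in every population, with its highest median in cluster 6 among clusters found in 3 or more libraries. Cluster 6 had 16.2 CPM in KPPCN 1 and 21.5 CPM in KPPCN 2, against levels of 16.6, 23.4 and 12.04 CPM in C3, D3 and H2. Cluster 0 had 5.4 and 10.6 CPM in KPPCN 1 and KPPCN 2, against 9.4, 7.3 and 4.3 CPM in C3, D3 and H2. Cluster 6 was thus higher in 5 of 5 libraries, by 1.76 to 3.19 times. Clusters 8, 11, 12 and 15 had 0.92 to 2.28 CPM and clusters 4 and 7 had 0 to 1.8 CPM, where the 0 in KPPCN 2 allows up to 5.25 CPM.

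The populations that held the UMIs of a member differed between libraries, as did the makeup of the libraries and the level within a population, and the part of each was not tested. Fibroblast-like cells held 74.2% and 84.1% of the Sfrp4 UMIs of KPPCN 1 and KPPCN 2, and 75.6 to 89.1% of those of the KPPC libraries. For Sfrp2 the share was 74.1% and 86.0% in KPPCN, against 86.5%, 18.4% and 73.8% in C3, D3 and H2, where D3 held only 166 fibroblast-like cells. Clusters 8, 11, 12 and 15 made up 72.3% of the cells of KPPCN 2 and held 97.5% of its Dkk2 UMIs and 89.6% of its Wnt5a UMIs. In KPPCN 1 these clusters held 49.4% of Dkk2 UMIs, against 28.1%, 20.1% and 9.0% in C3, D3 and H2. In C3, D3 and H2 cluster 6 held the largest share of Dkk2, with 49.0%, 34.7% and 51.3%.

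**Figure D2:**
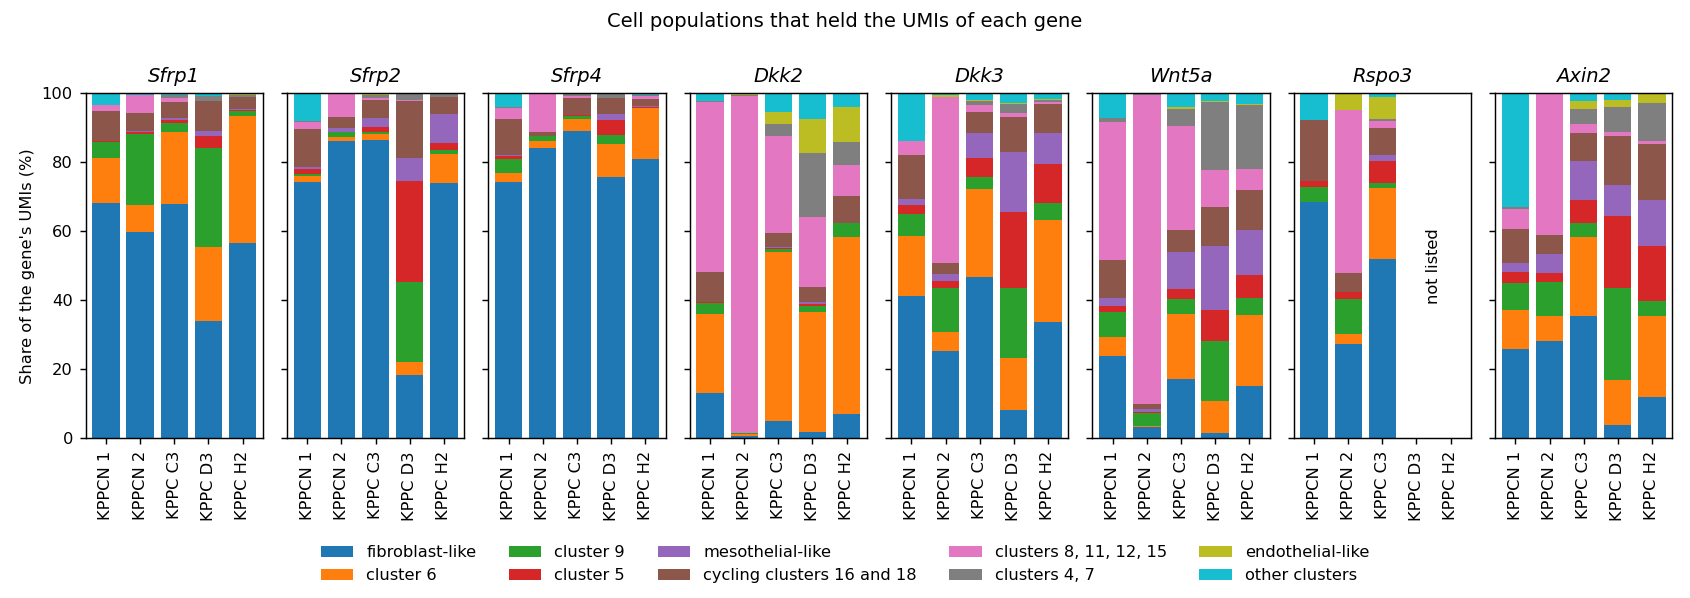
Share of each member's UMIs (y axis, percent) held by 10 groups of clusters, 1 bar per library, for cells kept after filtering. Dkk2 and Wnt5a of KPPCN 2 came almost wholly from clusters 8, 11, 12 and 15 (97.5% and 89.6%), whereas Sfrp4 came mainly from fibroblast-like cells in every library (74.2 to 89.1%).

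Set side by side within each library, cluster 6 and cluster 0 separated the members into those that were higher in cluster 6 in all 5 libraries (Dkk2, Dkk3, Wnt5a and Axin2) and those that were lower in all 5 (Sfrp1, Sfrp2 and Sfrp4). For Wnt5a the excess was 1.02 to 4.80 times, smallest in the KPPCN libraries, and for Sfrp1 cluster 0 exceeded cluster 6 by 1.06 to 1.83 times. In both KPPCN libraries the 95% Poisson intervals of clusters 6 and 0 overlapped for Wnt5a and for Axin2. Other genes of the pathway, chosen here after their values had been seen, differed between the clusters too. Unlike the members, they were not held out of the clustering, so a difference in them may be built into the clusters. Nkd2, whose product binds Dishevelled and dampens Wnt signalling, stood at 221 to 546 CPM in cluster 6, against 17.1 to 46.1 CPM in cluster 0. Frzb, another secreted Frizzled-related protein, had 64.8 to 138 CPM in cluster 6, against 6.9 to 18.6 CPM in cluster 0. Tnfrsf19 had 21.5 to 85.6 CPM, against 1.7 to 6.5 CPM. Rspo1, an R-spondin, was lower in cluster 6, with 1.8 to 7.2 CPM, against 19.01 to 50.6 CPM in cluster 0, and highest in mesothelial-like cells with 233 to 319 CPM.

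**Figure D3:**
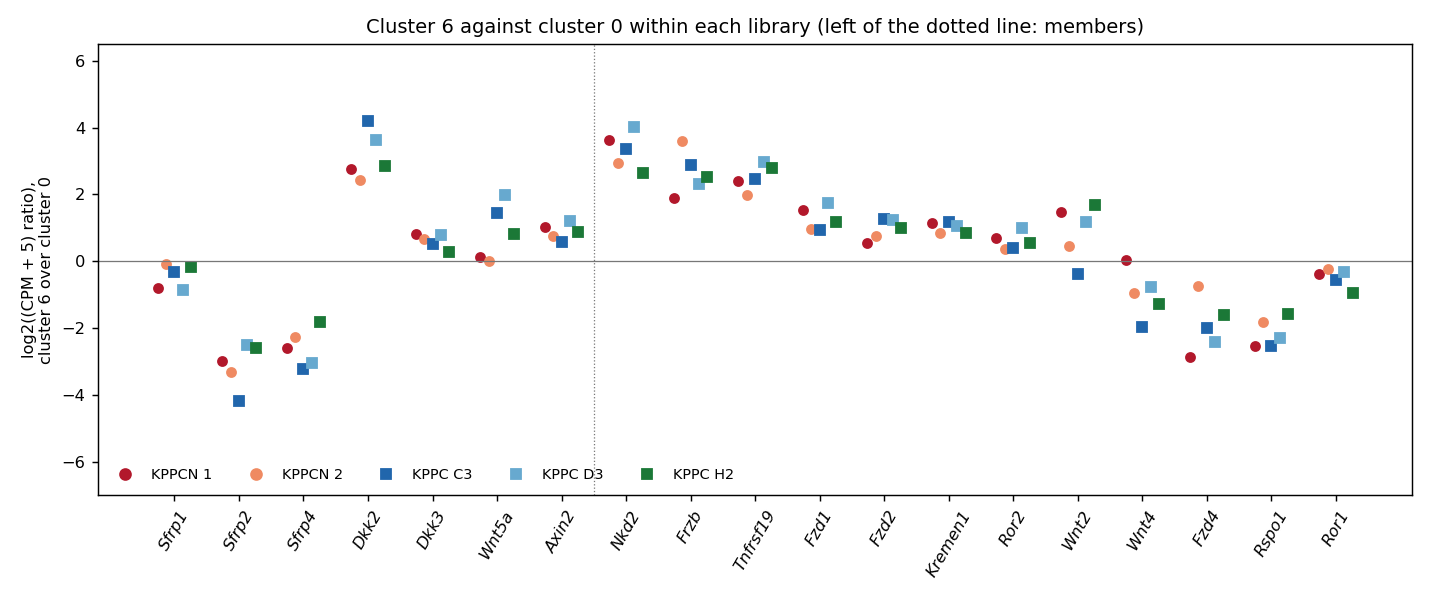
Ratio of cluster 6 over cluster 0 within each library, as log2 of the ratio of (CPM + 5), for the 7 members listed in all libraries (left of the dotted line) and 12 other pathway genes. All 5 points of Dkk2, Dkk3 and Axin2 lie above 0, those of Sfrp2 and Sfrp4 lie well below it, and those of Wnt5a range from near 0 in KPPCN to near 2 in D3.

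The question whether loss of Nsdhl in the carcinoma lineage went with a change in these genes was tested per population on UMI sums, with limma on log2(CPM + 5) and Benjamini-Hochberg adjustment over all genes tested. Levels in this and the next 5 paragraphs are CPM on totals adjusted by trimmed-mean scaling, and differences are KPPCN minus KPPC. None of the 7 testable members passed an adjusted p of 0.05 in any of 9 populations. Of the 62 tests 10 had an unadjusted p under 0.05, and the lowest adjusted p was 0.247. Among all genes, 515 of 10528 in cluster 0 to 2042 of 11413 over all cells had an unadjusted p under 0.05. The 62 tests overlap, since cluster 0 is part of the fibroblast-like cells and all cells hold every population. The design is small: an exact permutation of 2 against 3 libraries cannot give a p below 0.1. Nothing in the labels says more of the libraries than that they came from different mice, and p-values measure the spread between these 5 libraries.

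In fibroblast-like cells 0 of 7 members were called, where 0.0184% of 10863 genes were called (2 genes, and 785 at an unadjusted p under 0.05). With 1 library left out the genes called there numbered 0 to 35, the most without KPPCN 2, and no member was among them. Sfrp2 had 388 CPM in KPPCN 1 and 573 CPM in KPPCN 2, against 1384 CPM in C3, 1029 CPM in D3 and 609 CPM in H2. Both KPPCN libraries were below all KPPC libraries, though KPPCN 2 was close to H2, and with plain totals the order turned (571 against 563 CPM). The difference was -1.01 ± 0.35 (log2, SE), with a 95% interval of -1.81 to -0.21 and an adjusted p of 0.654.

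Sfrp1 gave 1085 and 1316 CPM in KPPCN 1 and KPPCN 2, against 1665, 2260 and 2876 CPM in C3, D3 and H2, again without overlap. Its difference was -0.89 ± 0.28 with an adjusted p of 0.591. Dkk3 was also lower without overlap, by -0.41 ± 0.20 (adjusted p 0.724). Dkk2 was the member that stood higher without overlap, with 16.8 and 23.3 CPM in KPPCN 1 and 2, against 11.2, 15.4 and 11.9 CPM in KPPC, a difference of 0.50 ± 0.19 (adjusted p 0.684). Among all genes tested 12% were lower and 12.4% higher without overlap, so 3 of 7 and 1 of 7 members are read against those shares. The remaining members overlapped: the difference was -0.52 ± 0.60 for Sfrp4, 0.21 ± 0.30 for Wnt5a and 0.17 ± 0.23 for Axin2.

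Which fibroblasts were measured differed between libraries. Of the 1331 fibroblast-like cells of KPPCN 1, 1120 belonged to cluster 2, whereas in the other libraries cluster 0 held 159 to 979 of 166 to 1018 cells. Within cluster 0 alone, Sfrp1 in KPPCN 1 was 1841 CPM and in KPPCN 2 was 1319 CPM, against 1666, 2277 and 2870 CPM in C3, D3 and H2, so that the genotypes overlapped and the difference was -0.51 ± 0.30 (adjusted p 0.998). Sfrp2 in cluster 0 differed by -0.97 ± 0.34 (adjusted p 0.931), without overlap on scaled totals only, since with plain totals KPPCN 2 stood above H2 (582 against 574 CPM). Dkk3 was lower without overlap, with -0.25 ± 0.18, and Dkk2 was higher, with 0.61 ± 0.19 (adjusted p 0.7997). In cluster 0 0 of 7 members were called, against 0.057% of 10528 genes, and 10.4% of genes were lower and 10.5% higher without overlap. Summed fibroblast markers in fibroblast-like cells were 41546 and 58548 CPM in KPPCN 1 and 2, against 56592 to 63572 CPM in KPPC, and summed epithelial markers were 193 and 71.9 CPM, against 312 to 521 CPM. The part of either in the differences was not tested.

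**Figure D4:**
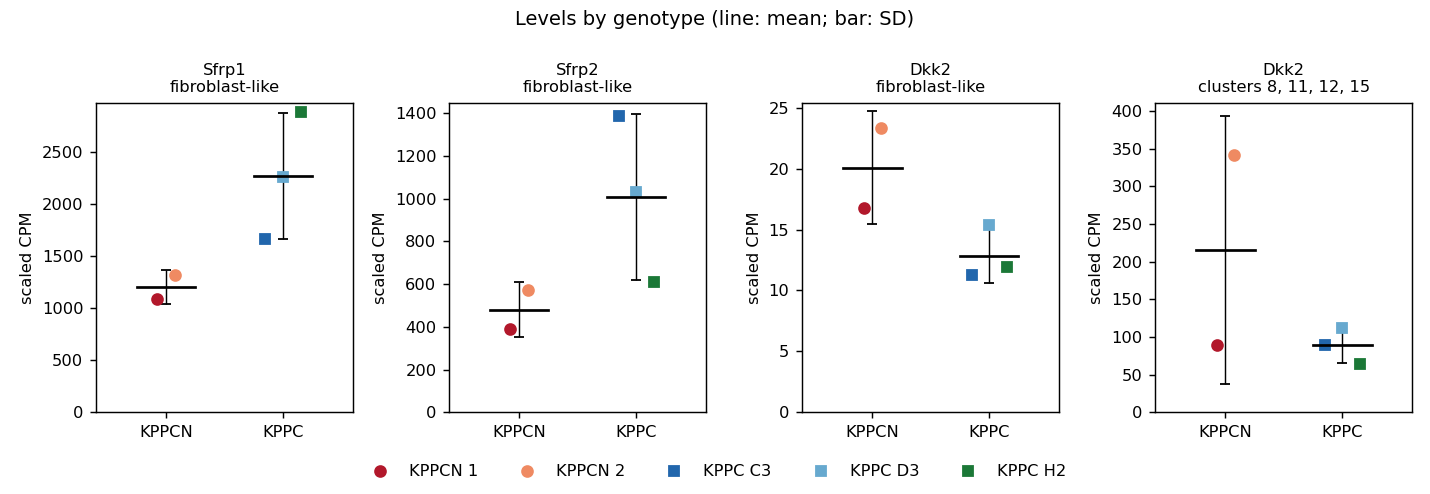
Scaled CPM by genotype, KPPCN left and KPPC right, 1 point per library, with the mean as a line and the SD as a bar, for Sfrp1, Sfrp2 and Dkk2 in fibroblast-like cells and Dkk2 in clusters 8, 11, 12 and 15. KPPCN lies below KPPC for Sfrp1 and Sfrp2 with a small gap for Sfrp2 (573 against 609 CPM) that turns with plain totals, and Dkk2 in the last panel rests on KPPCN 2 alone (341 CPM).

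The difference of Sfrp2 was below 0 in 7 of 8 populations, as that of Dkk2 was above 0 in 7 of 8. For Sfrp2 the exception was clusters 4 and 7 (0.10 ± 0.84), and both KPPCN libraries were below all KPPC libraries in 5 of the 8. For 2 of these 5, fibroblast-like cells and cluster 0, that order held on scaled totals and not on plain totals. Cluster 0 is part of the fibroblast-like cells, so these are not separate measurements, and all populations share the same 5 libraries. In mesothelial-like cells Sfrp2 had 78.2 and 49.8 CPM in KPPCN 1 and 2, against 141, 145 and 114 CPM in KPPC, a difference of -1.07 ± 0.23 with a 95% interval of -1.58 to -0.56. Its adjusted p of 0.247 was the lowest of any member, and 0% of 10832 genes were called there, with 1018 at an unadjusted p under 0.05 and 19.7% lower without overlap. The KPPCN values rest on 33 and 21 cells with 29 and 26 UMIs. In cluster 9 the difference of Sfrp2 was -2.07 ± 0.67 (adjusted p 0.279), where 0.244% of genes were called and 14.1% were lower without overlap, and D3 alone reached 259 CPM, against 32.4 and 59.2 CPM in H2 and C3. In cluster 6 it was -0.93 ± 0.35 (adjusted p 0.499).

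In cluster 6 Wnt5a was also lower without overlap. It had 45.6 CPM in KPPCN 1 and 39.4 CPM in KPPCN 2, against levels of 109, 78.9 and 70.3 CPM in C3, D3 and H2. The difference was -0.91 ± 0.23 with an adjusted p of 0.341, in a comparison where 0.0587% of 10224 genes were called and 14.7% were lower without overlap. Dkk2, the gene that marked cluster 6 off from cluster 0, overlapped between genotypes there, at -0.34 ± 0.35. In cluster 5 Dkk2 and Axin2 were higher without overlap (2 of 7 members, against 14.9% of genes, with 0.0374% of genes called), and none was lower, against 18.7% of genes. Dkk2 rested on 4 UMIs in each KPPCN library and 1 to 11 UMIs in each KPPC library. Axin2 rested on 6 and 4 UMIs in KPPCN 1 and KPPCN 2, with a gap of 9.43 CPM in KPPCN 2 against 9.22 CPM in H2. Axin2 was also higher without overlap in mesothelial-like cells (0.58 ± 0.34, adjusted p 0.601), from 5 and 9 UMIs in KPPCN 1 and KPPCN 2, where 15.5% of genes were higher without overlap.

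In clusters 8, 11, 12 and 15 no member was called or stood apart, against 0% of 10763 genes called (748 at an unadjusted p under 0.05) and 11.4% higher and 10% lower without overlap. Dkk2 had 89.6 CPM in KPPCN 1 and 341 CPM in KPPCN 2, against levels of 90.0, 112 and 64.4 CPM in C3, D3 and H2. Its difference was 0.99 ± 0.52 (adjusted p 0.743). Axin2 did not pass the filter on low sums there. Without KPPCN 1 the only KPPCN library left was KPPCN 2, assumed to vary like the KPPC libraries, and the difference became 1.89 with an adjusted p of 0.024. Cluster 8, where Dkk2 stood at 318 CPM, held 786 cells of KPPCN 2, 6 of KPPCN 1 and 0 to 4 of each KPPC library, so that cluster and library cannot be told apart. KPPCN 2 was also the highest library for Dkk2 in clusters 11 and 15, and KPPCN 1 the lowest. Cluster 15 had 70.2 and 439 CPM in KPPCN 1 and KPPCN 2, against 111 and 167 CPM in C3 and D3, and cluster 11 had 31.7 and 139 CPM, against 33.9 CPM in C3. Cluster 12, with under 20 cells in KPPCN 2, had 98.9 CPM in KPPCN 1, against 84.1, 90.0 and 69.2 CPM in C3, D3 and H2. In clusters 4 and 7, where 0% of 11259 genes were called, no member stood apart. Among all genes there, 16.1% were higher and 18.4% lower without overlap.

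Over all cells together 101 of 11413 genes (0.885%) were called and no member was among them. The libraries of both genotypes overlapped for every member, while 17.3% of genes were higher and 20.6% lower without overlap. Dkk2 had 33.9 and 283 CPM in KPPCN 1 and KPPCN 2, against 55.4, 26.6 and 21.8 CPM in C3, D3 and H2, a difference of 1.52 ± 0.86 (adjusted p 0.410). Without KPPCN 1 this became 2.95 (adjusted p 0.015), and Wnt5a (1.18, adjusted p 0.041) and Axin2 (-0.45, adjusted p 0.044) also passed, with 4171 genes called. In a sum over all cells, fewer cells of a type and less RNA per cell cannot be told apart.

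**Figure D5:**
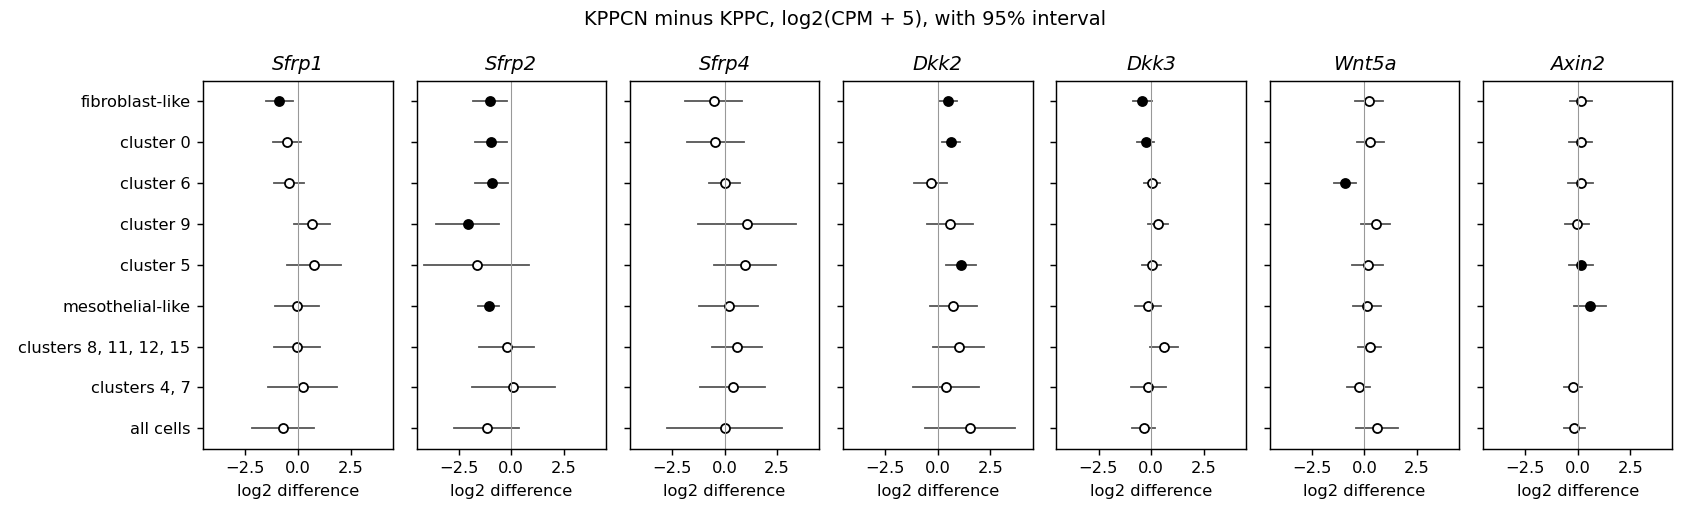
Difference KPPCN minus KPPC in log2(CPM + 5) on the x axis with its 95% interval for 7 members in 9 populations, filled points where the libraries of the genotypes did not overlap. The 62 differences include no call, Sfrp2 lies left of 0 everywhere but in clusters 4 and 7, and the all-cell interval of Dkk2 spans 0.

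Whether the genotype difference itself differed between fibroblast-like cells and another population was tested as an interaction. Of 42 such tests on members 0 passed, with the lowest adjusted p at 0.884, and 5 had an unadjusted p under 0.05. Among all genes tested in this way, none was called in any population. An unadjusted p under 0.05 was seen for 351 of 10920 genes in cluster 6, the fewest. The most were 675 of 11398 genes, in the summed clusters that kept Epcam. The 5 of 42 are read against those shares. Sfrp1 was lower in fibroblast-like cells of KPPCN (-0.89) and stood at 0.68 ± 0.38 in cluster 9. The test of that contrast gave 1.55 ± 0.52 with an adjusted p of 1.000 in limma. In that fit, which ignores that the sums share libraries, a genotype difference particular to 1 population was not shown for any member.

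The rest of the Wnt pathway was followed with a list of 81 other genes, of which 50 were listed in all 5 libraries and 45 passed the filter on low sums in fibroblast-like cells. None was called in any population. In fibroblast-like cells 12 of the 45 differences were above 0, with a median of -0.11, against 0.00 over all genes. Without overlap, 2 of the 45 were higher, against 12.4% of all genes, and 4 were lower, against 12%. In mesothelial-like cells 17 of 46 were lower without overlap, against 19.7% of all genes, and 4 were higher, against 15.5%, with a median of -0.20, against -0.05 over all genes. Receptors and coreceptors made up 10 of these 17, of 18 tested, with a median of -0.30, and the KPPCN values there come from 33 and 21 cells, with 0 to 2 UMIs in each KPPCN library for Fzd5, Fzd6, Lrp5 and Lgr4. Over all cells 17 of 50 were lower without overlap, against 20.6% of all genes, and in clusters 8, 11, 12 and 15 none of 42 was lower and 4 were higher, against 10% and 11.4%. By role, the 2 genes with the largest statistic in fibroblast-like cells were taken. Ccnd1, a cell cycle gene that β-catenin can drive, had 30.4 and 31.0 CPM in KPPCN 1 and 2, against 17.9, 11.6 and 13.9 CPM in KPPC (0.85 ± 0.18, adjusted p 0.366). Nkd1, a feedback inhibitor, differed by -0.52 ± 0.23. Among receptors Lgr5, which binds R-spondins, had 1.9 CPM in both KPPCN libraries, against 9.0, 12.05 and 4.5 CPM in KPPC (-0.89 ± 0.23, adjusted p 0.468), and the Wnt receptor Fzd1 differed by -1.13 ± 0.41. Fzd1 overlapped by a hair, with 77.92 CPM in KPPCN 2 and 77.88 CPM in H2. Without KPPCN 2 the difference was -1.90, with KPPCN 1 as the only KPPCN library left.

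Of the genes for ligand release, Porcn, the acyltransferase that lipidates Wnts, was lower without overlap (-0.58 ± 0.21, adjusted p 0.673), and Wls, their carrier, differed by -0.21 ± 0.22. The ligand Wnt4 was lower without overlap (-0.30 ± 0.19, adjusted p 0.739), and Wnt7b differed by 0.22 ± 0.18. Other secreted modulators overlapped between genotypes, with Rspo1 at -0.40 ± 0.32 and Frzb at -0.26 ± 0.24. Among cytoplasmic transducers Dvl1, a Dishevelled gene, was higher without overlap (0.58 ± 0.22, adjusted p 0.684), and Ctnnb1, which encodes β-catenin, was at -0.29 ± 0.21 with overlap.

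The genes whose levels followed each member most closely over populations and libraries were looked up over 87 sums, which share their libraries and depth, and the correlations are a description. Sfrp1 went with Lum (Pearson's r 0.94), Mfap5 (0.93) and Mmp2 (0.90), genes of the fibroblast matrix. Sfrp4 went with Dpt (0.91), Col14a1 (0.87) and Lum (0.86), and Sfrp2 with Vegfd (0.85), Cxcl1 (0.85) and Lgi2 (0.82). Dkk3 followed Lhfp (0.95), Col5a2 (0.94) and Rcn3 (0.93). Dkk2 followed Csgalnact1 (0.80), Nrep (0.78) and Gng11 (0.78), and Wnt5a followed Sdc2 (0.81), Angptl2 (0.81) and Oaf (0.77). For Axin2 the closest were Psd (0.75), Abi3bp (0.74) and Chrd (0.74), and for Rspo3, over 51 sums, Slc10a6 (0.75), Olfr1033 (0.72) and Nsg1 (0.71). Among the members themselves, the 3 SFRP genes correlated at 0.73 to 0.77 with each other, and Dkk2 at -0.09 to 0.15 with them.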

How the data were processed

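Droplet libraries of 2 KPPCN and 3 KPPC tumours were measured. An allele that both genotypes carry is not reported here. The deposited tables hold natural log values, ln(1 + UMIs per 10000), as their values show, and 100% of entries came out as whole UMIs within 0.01. Per the submitters' processing notes, GRCm38, Seurat 3.0.2, R 3.5.1 and Cell Ranger 2.1.0 were used, with no role stated. Members and gene lists were chosen with earlier results of these data known. A count test was planned for count tables, and because the authors deposited natural log values, limma 3.58.1 was used instead.

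Cells with 500 or more genes were kept (733 barcodes left out in KPPCN 1 and 68 in KPPCN 2), and the cells with the highest doublet scores (scanpy 1.11.5), 33 to 231 per library, were left out. Clusters were made without the members by Leiden clustering on 30 components and 20 neighbours at resolution 1, and named by a rule set after the clusters were seen. Depth over used cells was 26063619 to 77160143 UMIs per library. UMIs were summed per library and population with 20 or more cells, scaled by trimmed means and tested as log2(CPM + 5) with precision weights and Benjamini-Hochberg adjustment. A gene needed 10 UMIs at the median total in 2 libraries and 15 UMIs over all. The test was run on simulated data first. Named genes were all members, the 2 pathway genes per role with the largest statistic in fibroblast-like cells, and the 3 genes most correlated with each member. Alternatives covered pseudocount, filters, scaling, weights, clustering, thinning and left-out libraries.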

Additional observations from a re-analysis of the deposited data

Results flagged for a closer look

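Some Wnt pathway genes outside the comparisons were listed for KPPCN tumours and not for KPPC tumours, so that no genotype difference can be read from them. There were 23 such genes, of which 4 had no UMI in a cell that was kept and 11 had over 10 UMIs. The 4 below reached at least 5 CPM in a cluster, a level above what a count of 0 allows. Ndp, which encodes norrin, a Frizzled ligand outside the Wnt family, stood at 10.9 CPM in cluster 15 of KPPCN 2 from 159 UMIs and at 7.42 CPM in cluster 8 from 180 UMIs. Sp5, a transcription factor gene activated by β-catenin, stood at 15.3 CPM in cluster 15 of KPPCN 1 from 17 UMIs. The ligand gene Wnt6 stood at 5.24 CPM in cluster 2 of KPPCN 1 from 24 UMIs, and Dkkl1, a relative of the Dickkopf genes, at 15.2 CPM in cluster 22 of KPPCN 1 from 12 UMIs.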

How the results depend on the processing

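Over 68 results, 781 alternatives were run, of which 694 counted as the same. For a difference of a gene this meant the same sign and still no call. For a count of genes or libraries it meant a count equal or close to the main one. Among these 68 results, calls were gained with a KPPCN library left out, which left the other as the only KPPCN library. Without KPPCN 1 these were Dkk2 in clusters 8, 11, 12 and 15, and Dkk2, Wnt5a and Axin2 over all cells. Without KPPCN 2 it was Fzd1 in fibroblast-like cells. Not every member was followed in every population. Dkk2 in mesothelial-like cells was not among the 68 results, and its call at the lower clustering resolution is given below. Sfrp2 in fibroblast-like cells ranged from -1.34 to -0.74 over 16 alternatives (adjusted p 0.169 to 0.988) and Sfrp1 from -1.10 to -0.64, with no change of sign. Sfrp2 in mesothelial-like cells ranged from -1.75 to -0.74 over 15. Dkk2 in clusters 8, 11, 12 and 15 ranged from 0.02 to 1.89, and the low end came without KPPCN 2.

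Counts of genes called moved more, and the cause was not tested. With 1 library left out they ranged from 0 to 4171 over all cells, 0 to 13 in cluster 0, 0 to 13 in cluster 5, 0 to 10 in cluster 6, 1 to 33 in cluster 9, 0 to 495 in clusters 8, 11, 12 and 15, 0 to 1 in clusters 4 and 7, 0 to 35 in fibroblast-like cells and 0 to 1 in mesothelial-like cells. A pseudocount of 1 gave 217 over all cells and 1 in cluster 5. No filter gave 1 in cluster 5 and 3 in cluster 6. Plain totals gave 2 in cluster 5 and 0 in fibroblast-like cells. No weights gave 0 in clusters 5 and 6. Means over cells gave 313 over all cells, 3 in cluster 6 and 0 in cluster 5 and fibroblast-like cells. All genes of both tables, an alternative chosen after seeing the data, gave 3 over all cells, 10 in cluster 9 and 0 in clusters 0, 5, 6 and fibroblast-like cells. Thinning to 1000 UMIs gave 166 over all cells, 2 in cluster 9, 2 in clusters 8, 11, 12 and 15, 1 in fibroblast-like cells and 0 in clusters 0, 5 and 6. Over all cells, 4 were called with 1000 genes per cell and 4 without leukocytes. Resolution 0.5 gave 2 in cluster 0 and 189 in mesothelial-like cells, whose cluster there merged with others to 2423 cells (there Dkk2 was 1.18, adjusted p 0.022), and resolution 2 gave 6 there and 8 in fibroblast-like cells. Members kept among the clustering genes gave 27 in cluster 5 and 2 in cluster 6. The library as a block gave 1 gene whose difference in clusters 4 and 7 departed from that in fibroblast-like cells.

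Some small differences turned sign, and the cause was not tested. Over all cells Sfrp4 was -0.20 with means over cells, -0.12 after thinning and -1.12 to 1.18 with 1 library left out (-0.47 without D3, -0.46 without H2), and Axin2 was -0.45 to 0.15. After thinning Dkk2 was 0.13 in cluster 6 and -0.47 in clusters 4 and 7, where it was -0.71 to 1.57 with 1 library left out. In fibroblast-like cells thinning gave -0.35 for Wnt5a, 0.018 for Wls and 0.0059 for Nkd1. With 1 library left out there, Wnt5a was -0.067 to 0.39, Axin2 -0.034 to 0.37, Frzb -0.50 to 0.011, Rspo1 -1.003 to 0.14 and Wls -0.46 to 0.041. By share of cells with a UMI after thinning, Sfrp1 was higher in cluster 6 in 1 library. No paired analysis was possible because the KPPC libraries carry codes and no replicate numbers. Epithelial-like cells were not tested, with 9 cells in KPPCN 2. Not run, for too few cells, were resolution 0.5 for clusters 5 and 9, resolution 2 for cluster 5, and members kept for mesothelial-like cells. Depth limited the low members: in mesothelial-like cells of KPPCN 1, with 33 cells, a count of 0 allows up to 8.41 CPM.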
